A study of Mus musculus with 24 samples.

Results

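Siglec F-high alveolar macrophages sorted from the lungs of old mice given asbestos were compared with the same sort from young mice given asbestos. The comparison is defined by the sample labels alone, and it takes 8 of the 24 libraries deposited, 4 from old and 4 from young animals. Replicate 3 of each group is a poor library, so the results are given on 3 libraries a side, and values from all 24 libraries are given for some of them. Of 43430 gene IDs in the table, 13629 had enough counts to be tested.

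All mice were C57BL/6J. Young animals were 8 to 12 weeks old and old animals were more than 18 months old, and both groups compared had received asbestos 28 days before the cells were sorted by flow cytometry. The other 4 groups of 4 libraries were naive young and naive old Siglec F-high macrophages and the Siglec F-low macrophages of young and old asbestos-treated lungs. The study's title names proteostasis, the drug ISRIB and profibrotic monocyte-derived alveolar macrophages in lung fibrosis, and no library is labelled as treated with that drug. The labels do not say how many mice gave a library or which sex they were, and p-values measure only the spread between these libraries.

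Alveolar macrophages live on the air side of the lung, where they clear surfactant lipid, debris and inhaled particles. Siglec F, a sialic acid-binding surface lectin, is carried at high level by tissue-resident alveolar macrophages. Macrophages newly derived from blood monocytes carry less of it, and during fibrosis these recruited cells are known for expressing matrix-remodelling and growth-factor genes. Inhaled asbestos fibres persist in the airspace and cause fibrosis around the small airways.

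The 6 libraries compared held 13423080 to 18124526 counts over genes and 17690 to 18514 genes with a count. Old replicate 3 held 3894699 counts, of which 37.5% fell on 5 genes that gather ribosomal and other structural RNA, against 0.201% to 0.3605% in the 6 libraries compared. Young replicate 3 held 11889517 counts but only 12528 genes with a count. Log2 CPM (a gene's counts scaled to the library's TMM-adjusted total) of each library was correlated with the mean of the other kept libraries of its group. The correlation was 0.853 for young replicate 3 and 0.909 for old replicate 3, against 0.994 to 0.996 in the 6. Siglecf, the gene behind the sort, stood at 480.2, 505 and 461 CPM in young replicates 1, 2 and 4 and at 484, 502 and 502 CPM in old replicates 1, 2 and 4, with overlapping groups (log2 fold change 0.04, SE 0.11, edgeR adjusted p = 0.896). Below, triplets of CPM are always in that order, replicates 1, 2 and 4.

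With age, 997 of 13629 genes differed at an edgeR quasi-likelihood adjusted p under 0.05, a background rate of 7.32% of genes tested. Of these, 660 were higher in old cells (4.84%) and 337 were lower (2.47%). The genes higher in old cells included the basement membrane collagen genes Col4a1 and Col4a2, 7 of 19 MHC class II genes, the cell cycle inhibitors Cdkn2a and Cdkn2b and 5 of 24 genes of alternative activation. Those lower in old cells included 35 of 55 mitosis genes, 21 of 67 DNA replication genes and 8 of 32 endoplasmic reticulum chaperones. The median log2 fold change of all genes tested was 0.01. With all 24 libraries 641 of 13467 genes passed (4.76%), 454 of them also among the 997, all in the same direction, and errors were wider, with a median SE over genes of 0.24 in place of 0.15. Fewer list members passed with all 24 libraries: 2 of 21 MHC class I genes, 2 of 54 lysosomal genes, 5 of 39 cholesterol genes, 2 of 27 monocyte genes, 1 of 29 profibrotic genes, 1 of 27 resident macrophage genes, 3 of 24 alternative activation genes and 6 of 19 MHC class II genes were higher. Of 24 matrix genes 4 were then higher and none lower, and of 37 integrated stress response genes none was called. On 22 libraries, leaving out young replicate 2, young replicate 4 or old replicate 1 brought the count to 496, 567 and 551 genes.

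**Figure D1:**
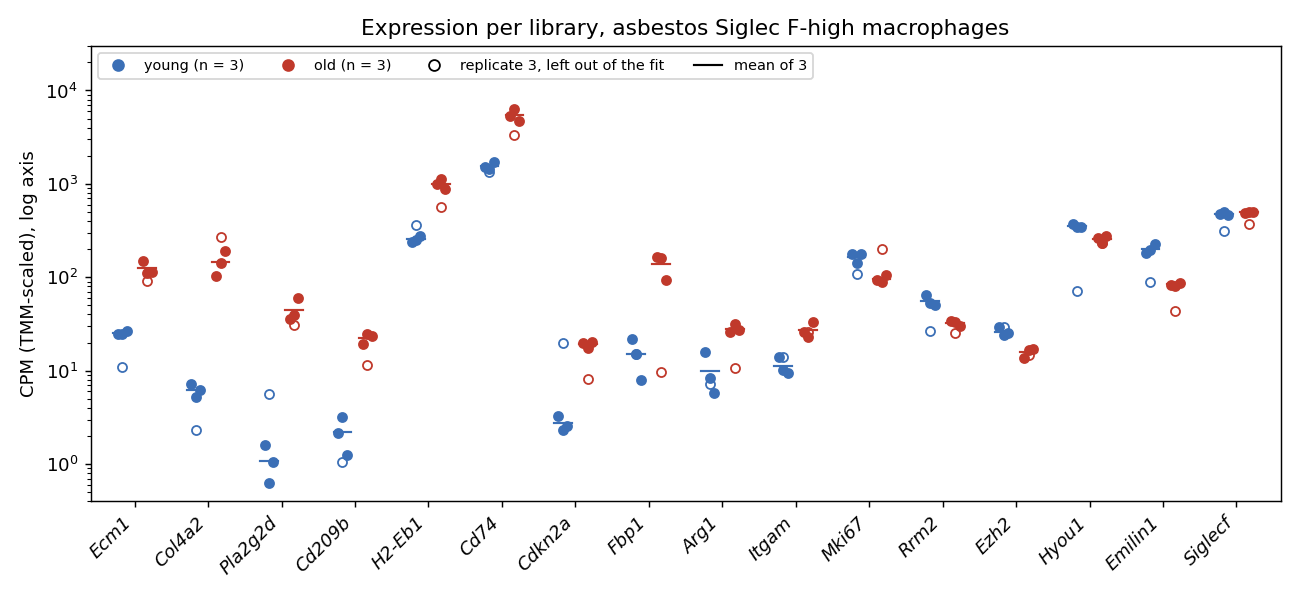
Expression of 16 genes in asbestos Siglec F-high libraries, as TMM-scaled CPM on a log axis; filled points are young (blue) and old (red) replicates 1, 2 and 4, bars are their means, and open points are the replicate 3 libraries on the scale of the 24-library fit. Groups of filled points are apart for every gene drawn except Siglecf, and several open points lie far from their group, such as young replicate 3 for Hyou1 at 71.9 CPM.

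Genes of the basement membrane and extracellular matrix held several of the most significant age differences. Ecm1 (extracellular matrix protein 1, chr3:95734147-95739569, GRCm38, minus strand) was the gene of smallest p. Its level was 24.9, 24.7 and 26.7 CPM in the young libraries and 148, 112 and 115 CPM in the old ones, a mean of 25.5 ± 1.12 CPM in young and 125 ± 20.1 CPM in old libraries (mean ± SD, n = 3 each) (log2 fold change 2.30, SE 0.14, edgeR adjusted p = 9.03e-10). Every old library lay above every young one, and the 2 poor libraries followed at 10.9 CPM for the young and 92.3 CPM for the old. Col4a2 and Col4a1 encode the paired chains of type IV collagen, the scaffold of basement membranes, and lie head to head on chromosome 8 (chr8:11312805-11449287, plus strand, and chr8:11198423-11312826, minus strand). Col4a2 rose from 7.18, 5.17 and 6.19 CPM to 104, 141 and 191 CPM (log2 fold change 4.55, SE 0.42, edgeR adjusted p = 2.93e-07). For Col4a1 the young libraries stood at 6.73, 4.59 and 4.02 CPM and the old ones at 60.3, 102 and 109 CPM (log2 fold change 4.14, SE 0.53, edgeR adjusted p = 2.16e-05). Both collagens were higher in the poor old library too, at 273 and 209.9 CPM, and old replicate 1 was the lowest of the 3 old libraries for both. Their annotated 5′ ends overlap and the strand setting of the counting is not given in the sources used here, so reads at that end could have gone to either gene.

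Of 25 matrix genes tested, 5 were higher and 3 lower in old cells, against 4.84% and 2.47% of all genes. Nid1, which links laminin to type IV collagen, also rose (log2 fold change 2.80, edgeR adjusted p = 0.00148), from 1.07, 0.264 and 0.659 CPM to 4.24, 4.18 and 5.51 CPM. Plod1, a lysyl hydroxylase that modifies collagen, fell from 188, 173 and 186 CPM to 119, 123 and 133 CPM (log2 fold change -0.55, SE 0.08, edgeR adjusted p = 1.55e-04). Emilin1, an elastic fibre glycoprotein that was not in the list, went from 180.1, 198 and 228 CPM to 82.7, 81.1 and 87.6 CPM (log2 fold change -1.27, SE 0.19, edgeR adjusted p = 1.93e-04). The median of the 25 was 0.23 on the log2 scale, with 13 positive and 12 negative log2 fold changes, so the list had no shared direction. When each of the 6 libraries was left out, the list's median lay between -0.36 and 0.37. Those fits tested 28 or 29 genes of the list, so the range mixes a change of genes with the effect of a library. The 3 that fell became 2 without young replicate 1, young replicate 2 or old replicate 4, and 1 without each of the others.

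The genes of the MHC class II pathway load peptides on class II molecules and display them to CD4 T cells, and the pathway is switched on by the co-activator Ciita through promoter elements that include the Y box. In the promoters of both genes printed here, from 250 bases before to 50 after the RefSeq start (GRCm38.p6), the Y box letters CTGATTGG are in capitals. The promoter of H2-Eb1 lies at chr17:34305617-34305916, plus strand, and that of H2-Aa at chr17:34287774-34288073, minus strand. They are shown as called class II chains that hold the element.
H2-Eb1: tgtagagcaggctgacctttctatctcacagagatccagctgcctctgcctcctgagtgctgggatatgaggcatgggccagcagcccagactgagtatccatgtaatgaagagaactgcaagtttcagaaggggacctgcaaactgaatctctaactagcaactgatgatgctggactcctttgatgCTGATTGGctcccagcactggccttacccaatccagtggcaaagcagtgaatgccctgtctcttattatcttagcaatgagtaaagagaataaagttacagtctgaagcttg
H2-Aa: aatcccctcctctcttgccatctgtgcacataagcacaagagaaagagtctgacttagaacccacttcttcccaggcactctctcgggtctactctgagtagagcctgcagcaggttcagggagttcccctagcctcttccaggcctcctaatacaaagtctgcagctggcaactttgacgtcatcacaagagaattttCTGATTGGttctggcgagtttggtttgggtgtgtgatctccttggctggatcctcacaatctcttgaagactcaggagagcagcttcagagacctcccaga

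The Y box letters, read on both strands, were found in 4 of 13 class II list genes with a promoter in the table (30.8%) and in 1271 of 27025 genes with one (4.70%). H2-Eb1, a class II beta chain, stood at 242, 253 and 275 CPM in young and 1009.6, 1115 and 885 CPM in old libraries, a 3.91-fold difference (log2 fold change 1.97, SE 0.25, edgeR adjusted p = 2.15e-05). H2-Aa, the alpha chain of I-A, rose from 333, 338 and 393 CPM to 1269, 1415 and 1139 CPM (log2 fold change 1.85, SE 0.24, edgeR adjusted p = 2.40e-05). Its beta chain partner H2-Ab1 gave 399.6, 421 and 487 CPM and 1447, 1618 and 1194 CPM (log2 fold change 1.70, SE 0.25, edgeR adjusted p = 1.04e-04). In each of the 3 genes old replicate 2 was the highest and old replicate 4 the lowest old library, and the age groups were far apart.

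Cd74, the invariant chain that guides class II molecules to the endosome, rose from 1518, 1434 and 1731 CPM to 5382, 6272 and 4737 CPM (log2 fold change 1.81, SE 0.24, edgeR adjusted p = 4.25e-05). Ciita itself was at 19.7, 23.5 and 24.1 CPM in young and 71.6, 59.05 and 60.2 CPM in old libraries (log2 fold change 1.51, SE 0.24, edgeR adjusted p = 3.89e-04). H2-DMb1, a chain of the peptide-exchange factor, went from 137, 119 and 136 CPM to 286, 321 and 255 CPM (log2 fold change 1.14, SE 0.13, edgeR adjusted p = 7.03e-06). In all, 7 of 19 class II genes were higher and none lower, the seventh being H2-Oa, which was at 3.73, 2.53 and 2.77 CPM and 6.42, 7.79 and 5.58 CPM and lost its call without young replicate 2 (0.0592) (edgeR adjusted p in parentheses, here and below). H2-DMa, the other chain of the exchange factor, was not called, at 292, 331 and 315 CPM and 356, 382 and 304 CPM. The list's median was 0.19, and 12 members were not called.

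Of 21 MHC class I genes tested, which present peptides to CD8 T cells, 8 were higher, none was lower and 13 were not called, with a median of 0.20. The median was -0.04 with all 24 libraries, where 2 were higher. The non-classical genes H2-Q6 and H2-Q7 differed most, H2-Q6 rising from 24.7, 22.1 and 24.96 CPM to 39.3, 49.8 and 49.6 CPM (log2 fold change 0.95, SE 0.14, edgeR adjusted p = 1.01e-04) and H2-Q7 from 14.6, 15.7 and 16.8 CPM to 23.7, 32.9 and 30.1 CPM (log2 fold change 0.88, SE 0.15, edgeR adjusted p = 6.96e-04). These are close paralogs, and the counting could have split or dropped their shared reads. The classical gene H2-D1 differed by 0.32 on the log2 scale, from 1979, 1861 and 1887 CPM to 2338, 2330.0 and 2478 CPM (edgeR adjusted p = 0.00805). Leaving out 1 library brought the 8 calls down to 5 without young replicate 2 or old replicate 4, and to 4 without young replicate 4 or old replicate 2.

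B lineage genes, which in bulk RNA can come with class II genes, were read beside these results. Of 22 B cell and immunoglobulin genes tested, 6 were higher and none lower in old libraries, and the summed level of the list was 265 to 276 CPM in the young and 299.6 to 620.3 CPM in the old libraries. The increase was uneven: Igkc, the kappa light chain constant region, stood at 15.04, 13.6 and 16.9 CPM in young and 53.8, 99.6 and 18.5 CPM in old libraries, and its call was lost without old replicate 2 (0.0841). Jchain, made by plasma cells, stood at 3.51, 2.79 and 5.599 CPM and 13.1, 34.1 and 6.44 CPM and lost its call without young replicate 1 (0.053), young replicate 2 (0.0903) and old replicate 2 (0.173). The 6 calls became 2 without young replicate 1 or 2, 3 without young replicate 4, 4 without old replicate 1 and 1 without old replicate 2. The surface B cell genes Cd79a and Ms4a1 were not called. Cd79a was at 3.902, 7.12 and 3.03 CPM in young and 5.59, 5.55 and 3.33 CPM in old libraries. The old libraries came in the same order for Igkc and for H2-Eb1, H2-Aa and H2-Ab1, with replicate 2 highest and replicate 4 lowest. In old replicate 4, Igkc at 18.5 CPM was close to the 13.6 to 16.9 CPM of the young libraries. H2-Ab1 in that library was at 1194 CPM, against 399.6 to 487 CPM in the young ones. The part of B lineage RNA in the class II result was not tested. In bulk samples, a change in the number of cells of a type and a change in RNA per cell cannot be told apart.

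The 2 genes of the Ink4 locus on chromosome 4, Cdkn2a (chr4:89274471-89294653) and Cdkn2b (chr4:89306299-89311039), encode inhibitors of the cyclin D kinases and are widely used as markers of ageing and senescence. Cdkn2a was at 3.28, 2.32 and 2.57 CPM in the young libraries and 19.8, 17.6 and 20.1 CPM in the old ones (log2 fold change 2.81, SE 0.29, edgeR adjusted p = 1.38e-06). Cdkn2b was at 3.05, 2.48 and 2.77 CPM and 7.901, 8.42 and 6.05 CPM (log2 fold change 1.43, SE 0.26, edgeR adjusted p = 0.00126). The groups were well separated, and both calls held when any of the 6 libraries was left out. Neither was called with all 24 libraries (edgeR adjusted p = 0.114 and 0.808), where young replicate 3 stood at 19.7 CPM for Cdkn2a and 17.3 CPM for Cdkn2b. The wider list of 36 cell cycle inhibitors and senescence genes had 4 higher and 4 lower members and a median of 0.08. Cdkn2c, a related Ink4 gene on the same chromosome, was among the lower, falling from 16.2, 14.3 and 15.7 CPM to 10.3, 6.98 and 8.45 CPM (log2 fold change -0.84, SE 0.17, edgeR adjusted p = 0.00311). Without young replicate 1, 7 of the list were higher, and without young replicate 2 or any 1 of the old libraries 2 were lower. On all 24 libraries 1 was higher and 1 lower.

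Mitosis genes were lower in old cells as a group: of 55 tested, 35 fell and none rose, against 2.47% of all genes falling, and the median was -0.58. Resident alveolar macrophages renew themselves by division, and these genes build the spindle, the kinetochore and the contractile ring. Mki67, which coats mitotic chromosomes and marks cycling cells, fell from 176, 144 and 179 CPM to 93.01, 89.04 and 106 CPM (log2 fold change -0.79, SE 0.12, edgeR adjusted p = 2.50e-04). Top2a, the topoisomerase that untangles replicated DNA, went from 119.7, 96.4 and 103 CPM to 66.7, 63.9 and 71.97 CPM (log2 fold change -0.66, SE 0.11, edgeR adjusted p = 7.22e-04). Anln, a scaffold of the contractile ring, went from 70.5, 65.6 and 72.4 CPM to 44.9, 47.3 and 44.4 CPM (log2 fold change -0.61, SE 0.09, edgeR adjusted p = 1.04e-04). The old libraries lay below all young ones for the 3 genes, and young replicate 1 or 4 was the highest. Smc4, a condensin subunit, and Kif11, the kinesin that separates the spindle poles, fell by 0.46 and 0.69 on the log2 scale (edgeR adjusted p = 4.01e-04 and 6.15e-04). Foxm1, a transcription factor of late cell cycle genes, fell by 0.80 (edgeR adjusted p = 0.00139).

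Many promoters of this group hold the CHR element, written TTTGAA, through which the DREAM and MuvB complexes act. The promoter of Anln (chr9:22389157-22389456, minus strand) is printed because Anln was the mitosis gene of smallest p. It holds the letters 2 times, once on each strand, and both matches are in capitals.
Anln: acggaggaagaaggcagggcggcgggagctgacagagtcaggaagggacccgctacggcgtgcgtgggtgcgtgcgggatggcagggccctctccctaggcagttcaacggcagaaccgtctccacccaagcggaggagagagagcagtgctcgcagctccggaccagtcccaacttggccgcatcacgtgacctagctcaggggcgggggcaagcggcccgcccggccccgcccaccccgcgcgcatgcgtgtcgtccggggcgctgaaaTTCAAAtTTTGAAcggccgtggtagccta

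TTTGAA was found on either strand in 32 of 44 mitosis genes with a promoter in the table (72.7%), in 23 of the 27 that fell and had a promoter (85.2%), and in 20.2% of all 27025 genes with one. The shares describe the list and not the age difference, since mitosis genes not called lower also hold the letters. The number of mitosis genes lower in old cells was 19 without young replicate 1, and 23 without old replicate 1 or old replicate 4, and their median stayed between -0.62 and -0.47 over the 6 fits. With all 24 libraries 23 were lower, and Mki67 was no longer called (log2 fold change -0.33, edgeR adjusted p = 0.323), with old replicate 3 at 203 CPM.

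Genes of DNA replication and of chromatin assembly behind the fork also fell, 21 of 67 being lower and none higher, with a median of -0.32. Rrm2, the ribonucleotide reductase subunit that limits nucleotide supply, fell from 64.6, 52.5 and 50.6 CPM to 34.2, 33.4 and 30.4 CPM (log2 fold change -0.77, SE 0.13, edgeR adjusted p = 5.15e-04). H2afx, the histone variant phosphorylated at DNA breaks, went from 62.1, 54.999 and 50.7 CPM to 34.9, 38.9 and 34.98 CPM (log2 fold change -0.63, SE 0.09, edgeR adjusted p = 1.55e-04). Ezh2, the methyltransferase of Polycomb complex PRC2, went from 29.1, 24.05 and 25.1 CPM to 13.6, 16.5 and 17.1 CPM (log2 fold change -0.73, SE 0.12, edgeR adjusted p = 5.45e-04). In each of the 3 genes every old library was below every young one. Uhrf1, which brings the maintenance methyltransferase to new DNA, fell by 0.61 (edgeR adjusted p = 0.00542). Leaving out any 1 of the 6 libraries brought the list's calls down to between 8 and 12 (12 without old replicate 2, 8 without each of the others), and 11 were lower with all 24 libraries.

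The promoter of Ezh2 (chr6:47594981-47595280, minus strand) is printed as the replication gene of smallest p with an E2F site. E2F factors drive genes of the S phase. The site was searched on both strands as TTTCCCGC, TTTGGCGC, TTTCGCGC or TTTGCCGC, and the match is in capitals.
Ezh2: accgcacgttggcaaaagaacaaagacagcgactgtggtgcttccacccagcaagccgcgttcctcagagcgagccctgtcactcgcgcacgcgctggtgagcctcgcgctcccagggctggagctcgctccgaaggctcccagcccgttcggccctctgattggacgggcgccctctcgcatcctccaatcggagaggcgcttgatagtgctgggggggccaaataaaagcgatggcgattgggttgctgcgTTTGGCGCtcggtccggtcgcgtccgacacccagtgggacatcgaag

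One of these letter strings was present in 22 of 53 replication genes with a promoter in the table (41.5%), in 7 of the 16 that fell and had one (43.8%), and in 704 of all 27025 genes (2.6%). These shares describe the lists and not the age difference, since list members that did not fall also hold the sites.

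**Figure D2:**
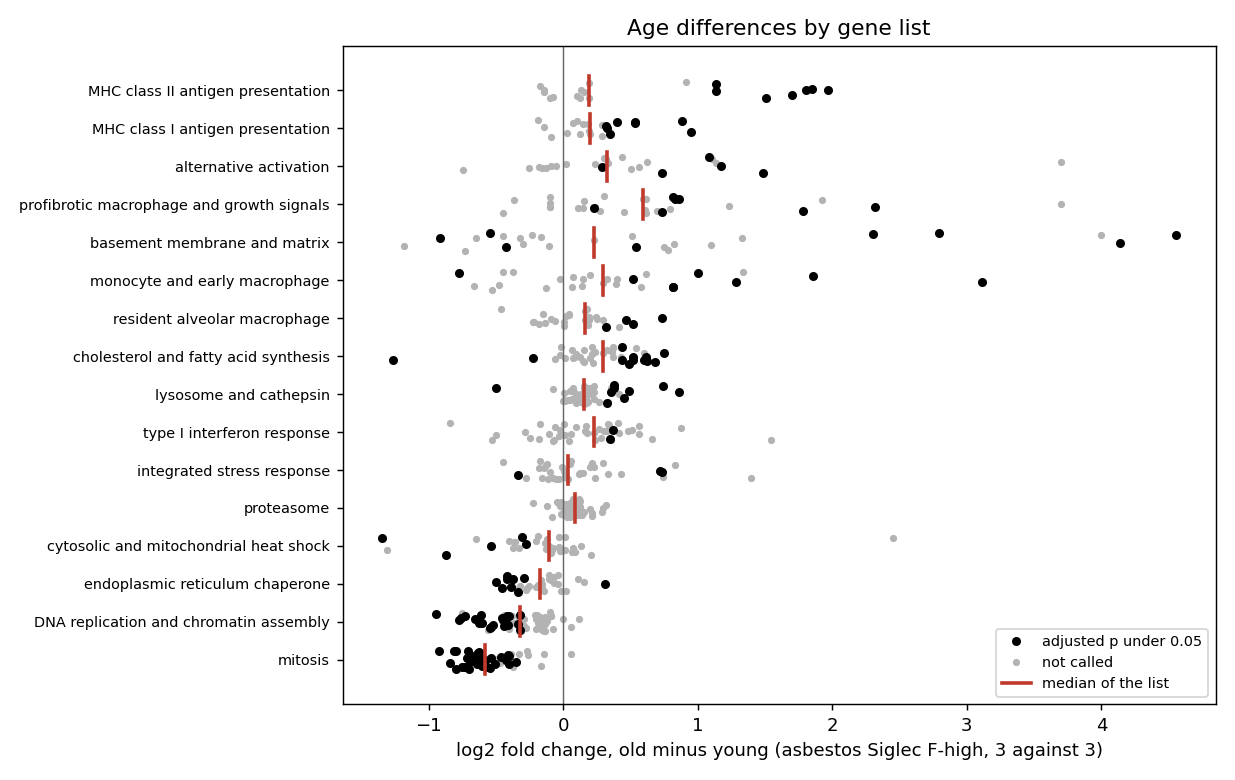
Log2 fold changes (old minus young, horizontal axis) of the genes of 16 lists; each point is a gene, black where the adjusted p was under 0.05 and grey otherwise, and the red bar is the list's median. The mitosis list is displaced to the left with a median of -0.58, the proteasome list lies near 0 with no black point, and 7 class II genes sit apart from the rest of their list.

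Chaperones and folding enzymes of the endoplasmic reticulum are raised by the unfolded protein response when folding capacity is short. Of 32 tested, 8 fell and 1 rose in old cells, 28 had a negative log2 fold change, and the median was -0.18. Hyou1, a large chaperone of the lumen, fell from 369, 342 and 347 CPM to 261, 234 and 277 CPM (log2 fold change -0.46, SE 0.09, edgeR adjusted p = 0.00336). Pdia4, a disulfide isomerase, fell from 327, 310.2 and 309.9 CPM to 249, 247 and 255 CPM (log2 fold change -0.33, SE 0.08, edgeR adjusted p = 0.0118). These were the 2 whose calls held when each library was left out in turn. Hspa5, the main lumenal chaperone also called BiP, was not called on 3 a side, at 1589, 1398 and 1316 CPM in young and 1045, 1110.3 and 1249.9 CPM in old libraries (log2 fold change -0.34, SE 0.12, edgeR adjusted p = 0.0985), and was called with all 24 libraries (log2 fold change -0.57, edgeR adjusted p = 0.0375). The 3 old libraries were all below the 3 young ones, but the share of all genes separated in this way is not given here. Atf6, a stress sensor of this compartment, was the member that rose (log2 fold change 0.31, SE 0.09, edgeR adjusted p = 0.0334), and its call was lost without young replicate 1 (0.08), young replicate 2 (0.093), young replicate 4 (0.0994), old replicate 1 (0.113) and old replicate 4 (0.109).

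Several of these promoters hold the endoplasmic reticulum stress response element, CCAAT and CCACG separated by 9 bases, which binds NF-Y and ATF6. The promoter of Pdia6, a disulfide isomerase, is shown (chr12:17266339-17266638, plus strand), with the element in capitals.
Pdia6: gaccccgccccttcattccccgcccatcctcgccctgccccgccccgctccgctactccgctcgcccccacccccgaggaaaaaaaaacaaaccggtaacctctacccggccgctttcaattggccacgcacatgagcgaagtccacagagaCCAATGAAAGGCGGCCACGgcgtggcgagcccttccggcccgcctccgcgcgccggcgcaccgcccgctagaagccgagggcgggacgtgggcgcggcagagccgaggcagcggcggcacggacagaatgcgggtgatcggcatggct

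The element was found on either strand in 9 of 25 chaperone genes with a promoter in the table (36.0%), in 3 of the 6 that fell and had one, and in 37 of all 27025 genes (0.137%). Here too the shares describe the list, since chaperones not called lower also hold the element. Pdia6 itself fell from 469, 430.3 and 414 CPM to 331, 348 and 324 CPM (log2 fold change -0.39, SE 0.10, edgeR adjusted p = 0.0167), and was not called without young replicate 1 (0.0752), young replicate 2 (0.0508), old replicate 1 (0.0663) and old replicate 4 (0.0685). The number of chaperones that fell was 3, 4 and 6 without young replicates 1, 2 and 4, and 2, 5 and 6 without old replicates 1, 2 and 4.

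The cytosolic and mitochondrial heat shock list gave 5 of 35 genes lower and none higher, with a median of -0.11. Fkbp4, a co-chaperone of Hsp90 in steroid receptor complexes, fell from 138, 146 and 140.2 CPM to 99.9, 101 and 92.3 CPM (log2 fold change -0.54, SE 0.08, edgeR adjusted p = 1.04e-04) and was called in all 6 fits that left a library out. Fkbp5, a related co-chaperone that glucocorticoids induce, stood at 144, 368 and 297 CPM and 115, 92.5 and 111 CPM (log2 fold change -1.34, SE 0.29, edgeR adjusted p = 0.00469). Young replicate 1 was much closer to the old libraries than young replicates 2 and 4 were, and the call was lost without young replicate 2 (0.0501). Between 1 and 3 members of the list fell when a library was left out, 1 without young replicate 2, 2 without young or old replicate 4 and 3 without each of the others.

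No proteasome gene of 44 tested was called by edgeR (4 at an unadjusted p under 0.05, and 1 called by DESeq2), 35 had a positive log2 fold change, and the median was 0.08. Psmb5, the subunit with chymotrypsin-like activity, stood at 76.3, 69.2 and 64.7 CPM in young and 76.95, 81.3 and 71.3 CPM in old libraries (log2 fold change 0.13, SE 0.12, edgeR adjusted p = 0.639). With all 24 libraries the list's median was -0.55, again with no call, and Psmb5 was at 175 CPM in young replicate 3, so the sign of the median differed with the 2 poor libraries in the fit. The integrated stress response, which ISRIB counteracts, gave 2 genes higher and 1 lower of 37, with a median of 0.04. These shares are near the 4.84% and 2.47% of all genes that were higher and lower. Gdf15, a stress-induced cytokine, went from 85.4, 65.9 and 61.3 CPM to 138, 95.5 and 117 CPM, Trib3, a pseudokinase induced by CHOP, from 4.18, 3.902 and 3.36 CPM to 6.04, 6.298 and 6.82 CPM, and Shmt2, a mitochondrial serine enzyme, fell from 42.98, 38.7 and 43.3 CPM to 31.5, 36.7 and 30.8 CPM (edgeR adjusted p = 0.0302, 0.046 and 0.0286). With 1 library left out, 0 or 1 gene of the list was higher (1 without young replicate 1 or old replicate 2) and 0 or 1 was lower (1 without young or old replicate 2). Atf4, its central transcription factor, was at 203, 186 and 161 CPM and 201, 228 and 217 CPM (log2 fold change 0.23, SE 0.11, edgeR adjusted p = 0.241). Ddit3, the factor CHOP downstream of Atf4, was at 11.8, 9.39 and 7.97 CPM and 13.04, 8.73 and 15.2 CPM (log2 fold change 0.33, SE 0.23, edgeR adjusted p = 0.479). The age groups overlapped for Atf4 and Ddit3, whose translation and protein were not measured here.

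**Figure D3:**
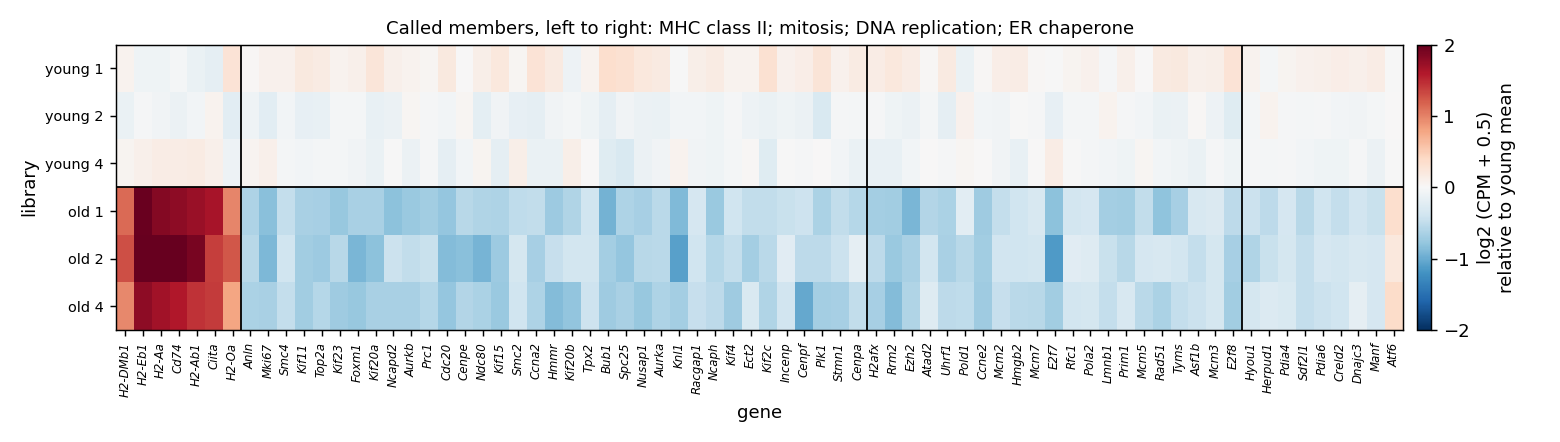
Called members of 4 lists (columns, from left MHC class II, mitosis, DNA replication and endoplasmic reticulum chaperones) in the 6 libraries compared (rows), as log2 (CPM + 0.5) relative to the mean of the 3 young libraries; red is higher and blue lower, and the colour scale ends at 2 in each direction. The 3 old libraries are red throughout the class II block and pale to mid blue in the other 3 blocks, apart from Atf6 at the right edge, which is pale red.

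Several genes of alternative activation and of recruited macrophages were higher in old cells. The lists share members, so their counts are not independent. Chil3 is in the alternative activation, profibrotic and resident macrophage lists. Trem2 is in the monocyte and profibrotic lists, and Irf4 is also in the dendritic cell list. Of 24 alternative activation genes, 5 rose and none fell, with a median of 0.33. Chil3, a chitinase-like protein, rose 1.67-fold, from 22983, 19349 and 20063 CPM to 35679, 36396 and 31911 CPM (log2 fold change 0.74, SE 0.13, edgeR adjusted p = 0.0011). Arg1, arginase 1, rose from 15.8, 8.44 and 5.796 CPM to 25.95, 31.5 and 27.5 CPM (log2 fold change 1.49, SE 0.25, edgeR adjusted p = 6.03e-04). Irf4, a transcription factor downstream of IL-4, rose from 8.37, 8.701 and 8.83 CPM to 17.5, 18.8 and 22.1 CPM (log2 fold change 1.17, SE 0.20, edgeR adjusted p = 7.91e-04). The old libraries lay above all young ones for the 3 genes, and the young libraries varied most for Arg1, where replicate 1 was the highest. Chil4, a close paralog of Chil3 whose reads may be shared with it, rose as well (log2 fold change 1.09, edgeR adjusted p = 0.00119).

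Among 27 monocyte and early macrophage genes 7 rose, 1 fell and 19 were not called. The median was 0.30, and 8 log2 fold changes were negative. Itgam, the integrin CD11b of recruited myeloid cells, rose from 14.02, 10.1 and 9.42 CPM to 26.01, 22.8 and 33.2 CPM (log2 fold change 1.28, SE 0.20, edgeR adjusted p = 2.82e-04). Trem2, a lipid-sensing receptor, rose from 85.6, 74.2 and 75.7 CPM to 145, 123 and 145 CPM (log2 fold change 0.81, SE 0.16, edgeR adjusted p = 0.00192). Ly6c2, a surface marker of classical monocytes, was scarce, at 0.113, 0.158 and 0.132 CPM (7 counts in 3 libraries) and 0.707, 1.43 and 1.55 CPM (54 counts), and was called (edgeR adjusted p = 0.00409). Apoe, the lipid carrier, was the member that fell, from 112, 114 and 119 CPM to 84.5, 47.3 and 70.6 CPM (log2 fold change -0.77, SE 0.19, edgeR adjusted p = 0.014), and its call was lost without young replicate 4 (0.0514) and old replicate 2 (0.0908). Without old replicate 4, 4 of the 27 rose.

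Of 29 profibrotic macrophage and growth signal genes, 7 rose and none fell, with a median of 0.59. Mmp12, the macrophage elastase, stood at 92.2, 44.1 and 42.02 CPM in young and 323, 275 and 290.2 CPM in old libraries (log2 fold change 2.31, SE 0.57, edgeR adjusted p = 0.0141). Young replicate 1 was higher than the other 2 young libraries, and the call was lost without young replicate 2 (0.0866) and young replicate 4 (0.0808). Spp1, osteopontin, was at 931, 619.9 and 622 CPM and 1168, 1081 and 1083 CPM and was not called (log2 fold change 0.62, SE 0.22, edgeR adjusted p = 0.101). Its groups did not overlap, and it was called when young replicate 1, the highest young library, was left out. The count of 7 was 2 without young replicate 2 or 4, 3 without old replicate 1 and 4 without old replicate 4.

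The genes of these 3 lists called higher in old cells were then read in the other sort. Of the 17, shared members counted once, 12 were higher in every Siglec F-low library than in every Siglec F-high library of the same age, at both ages. None was lower throughout. The other 5 were Irf4, Il13ra1, Ly6c2, Plac8 and Tgfb1 (a comparison chosen after the values were seen). The share of all genes tested that lay higher in the Siglec F-low sort in this way is not given here. The 12 of 17 is therefore not set against a background rate. The lists hold genes known from recruited macrophages, which carry less Siglec F, so higher levels in this sort may come with the choice of lists. In the Siglec F-low libraries Arg1 was at 138 to 224 CPM in young and 352 to 565 CPM in old mice, Mmp12 at 560.5 to 705 CPM and 1023 to 1792 CPM, and Itgam at 33.1 to 49.4 CPM and 67.1 to 117 CPM, all above the Siglec F-high libraries of the same age. Fbp1, the gluconeogenic enzyme fructose bisphosphatase 1, rose in old Siglec F-high cells from 21.8, 15.03 and 7.97 CPM to 163, 161 and 92.8 CPM (log2 fold change 3.21, SE 0.39, edgeR adjusted p = 2.81e-05) and was at 44.5 to 189 CPM and 330.3 to 418 CPM in the Siglec F-low sort of young and old mice. Naive libraries had no count of Fbp1 in young mice and 0 to 0.119 CPM in old mice. Whether cells of the Siglec F-low kind inside the Siglec F-high gate had a part in these differences was not tested. Siglecf, which in the Siglec F-low sort was at 250.1 to 309 CPM in young and 156 to 234 CPM in old mice, covered overlapping ranges in the old and young Siglec F-high libraries.

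Markers of the sort were present: all 27 resident alveolar macrophage genes were counted in all 6 libraries, with a summed level of 42725 to 48486 CPM in young and 58993 to 63037 CPM in old libraries. Chil3 alone carried most of that difference, and of the 27 genes 4 rose and none fell, with a median of 0.16. Without young replicate 2, 2 rose. Apart from the B lineage sum given above, marker sums of other cells overlapped between the 2 age groups: T and NK cell genes at 360.3 to 394.6 CPM in young and 360.3 to 434.6 CPM in old libraries, dendritic cell genes at 94.4 to 106 CPM and 104 to 120.4 CPM, and neutrophil genes at 85.8 to 105 CPM and 95.0 to 107 CPM, with Ly6g, Mpo, Stfa1, Stfa2 and Stfa3 at 0 in all 6. Of 10 neutrophil genes tested, 4 rose nonetheless, S100a8 from 8.09, 5.695 and 6.98 CPM to 18.3, 14.96 and 18.6 CPM being the most abundant of them, and 1 or 2 rose when a library was left out. None of 24 T and NK cell genes was called by edgeR (4 at an unadjusted p under 0.05, and 1 called by DESeq2), and of 13 dendritic cell genes 2 rose and 1 fell. Eosinophils, which also carry Siglec F, had list sums of 58.0 to 69.95 CPM in young and 52.4 to 74.8 CPM in old libraries.

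Of 39 cholesterol and fatty acid synthesis genes, 10 rose and 2 fell, and 34 had a positive log2 fold change, with a median of 0.30. Nsdhl, a sterol dehydrogenase, rose from 25.1, 23.9 and 24.4 CPM to 39.6, 37.97 and 35.3 CPM (log2 fold change 0.62, SE 0.12, edgeR adjusted p = 0.00148). Hsd17b7, which acts in the same pathway, rose from 22.6, 19.5 and 16.7 CPM to 33.7, 27.2 and 33.8 CPM (log2 fold change 0.68, SE 0.13, edgeR adjusted p = 0.00191). Both were called in each of the 6 fits that left a library out, while the count of 10 fell to 2 and 5 without young replicates 2 and 4 and to 6 and 4 without old replicates 1 and 4. Elovl6, a fatty acid elongase, was 1 of the 2 that fell, from 11.7, 14.3 and 11.3 CPM to 4.37, 5.42 and 5.82 CPM (log2 fold change -1.26, SE 0.31, edgeR adjusted p = 0.0148), and lost its call without young replicate 2 (0.0771) and old replicate 1 (0.0823). The letters of a sterol regulatory element, TCACNCCAC on either strand, were in 1 of 29 promoters of the list and in 1.44% of all.

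Of 54 lysosomal genes 8 rose, 1 fell and 52 had a positive log2 fold change, with a median of 0.16. Gla, alpha-galactosidase A, rose from 95.9, 76.5 and 75.02 CPM to 141, 132 and 140.1 CPM (log2 fold change 0.74, SE 0.10, edgeR adjusted p = 2.96e-05), and Lamp2, a lysosomal membrane protein, from 484, 439 and 437 CPM to 686, 571 and 652 CPM (log2 fold change 0.49, SE 0.09, edgeR adjusted p = 0.00177). The 8 became 2 without young replicate 2, young replicate 4 or old replicate 4, and 3 without old replicate 1. Genes of lipid uptake, storage and efflux had no shared direction: of 43 tested, 7 rose and 1 fell, 23 log2 fold changes were positive and 20 negative, and the median was 0.03. On all 24 libraries 1 rose and 1 fell. Pla2g2d, a secreted phospholipase A2 of this list, showed the second smallest p of all genes, at 1.58, 0.633 and 1.05 CPM in young and 35.8, 39.1 and 59.5 CPM in old libraries (log2 fold change 5.36, SE 0.34, edgeR adjusted p = 1.17e-09). Cd209b, the C-type lectin SIGN-R1, was next, at 2.15, 3.16 and 1.25 CPM and 19.5, 24.7 and 23.7 CPM (log2 fold change 3.34, SE 0.24, edgeR adjusted p = 8.24e-09). For both genes the lowest old library stood far above the highest young one.

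Other genes of the 10 smallest p among those higher in old cells belonged to no list. Cpeb1, which controls poly(A) tail length, was at 2.38, 3.85 and 3.82 CPM and 20.2, 18.6 and 27.5 CPM (log2 fold change 2.72, SE 0.21, edgeR adjusted p = 2.25e-08). Esrrg, an orphan nuclear receptor, was at 0.622, 1.16 and 1.25 CPM and 14.8, 25.4 and 21.6 CPM (log2 fold change 4.35, SE 0.35, edgeR adjusted p = 3.44e-08), and Rasef, a Rab-like GTPase, at 0.226, 0.949 and 0.329 CPM and 17.7, 29.4 and 29.2 CPM (log2 fold change 5.59, SE 0.48, edgeR adjusted p = 6.92e-08). Osbpl5, Myo1d and Rassf8 completed the 10, with log2 fold changes of 2.53, 3.91 and 2.67. All of these were also higher in old naive cells. Igkv3-2, an immunoglobulin kappa variable segment, and Pknox2, a homeobox gene, had the largest log2 fold changes named by size, but rested on 2 and 3 counts in the 3 young libraries together, against 259 and 291 in the old. Palmd and Srgap1, also named by size, had 12 and 14 counts in the young and 369 and 396 in the old libraries. Among genes lower in old cells, Swap70, which organises actin, fell from 52.8, 54.8 and 59.7 CPM to 35.1, 32.6 and 38.2 CPM (log2 fold change -0.66, SE 0.09, edgeR adjusted p = 3.75e-05). Lrp5, a Wnt co-receptor, fell from 27.03, 25.997 and 27.005 CPM to 15.7, 12.3 and 10.3 CPM (log2 fold change -1.06, SE 0.16, edgeR adjusted p = 1.77e-04), and Inka1, an inhibitor of the kinase PAK4, from 3.17, 7.01 and 8.63 CPM to 0.642, 1.56 and 1.71 CPM (log2 fold change -2.27, SE 0.42, edgeR adjusted p = 0.00153). Me2, the mitochondrial malic enzyme, and Patj, a tight-junction scaffold, fell by 0.58 and 0.74. Cspg4 and Abi3 were among the larger decreases (log2 fold changes -1.45 and -1.41), as were Gpr141, lost without old replicate 1 (0.054), and the integrin Itga6, lost without old replicate 2 (0.0518). Tcf7, a transcription factor best known from T cells, differed by -1.54 and was lost without young replicate 2 (0.131), young replicate 4 (0.0961), old replicate 1 (0.116) and old replicate 4 (0.097).

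The same age contrast was available in naive Siglec F-high cells, where 1094 genes were called (8.03%), and in asbestos Siglec F-low cells, where 983 were called (7.21%), with no library in common with the 6. The labels do not say whether the Siglec F-high and Siglec F-low sorts came from the same mice. The fit treated their libraries as independent. Of the 997 genes, 520 were also called in the same direction in naive cells and 2 in the opposite one, which is 52.2% of the 997 and 47.5% of the naive calls. In Siglec F-low cells 451 were called in the same direction and none in the opposite. In all 3 comparisons 290 genes were called in 1 direction, 185 higher and 105 lower, and 316 of the 997 were called in neither of the others. Class II genes were among those shared: H2-Eb1 was at 123 to 350.5 CPM in young naive and 1060.3 to 1568 CPM in old naive libraries, and its log2 fold change was 2.38 in naive and 1.61 in Siglec F-low cells. Mki67 differed by -0.65 and -0.80 in those 2 comparisons. Of the mitosis list 27 and 44 genes were lower in them, and of the DNA replication list 15 and 34. Of the endoplasmic reticulum chaperones 7 and 10 were lower, and of the heat shock list 12 and 5. In naive cells 1 mitosis and 1 DNA replication gene were higher, and in Siglec F-low cells 1 chaperone was. Col4a2 differed by 6.05 in naive cells, 2.27 to 3.05 CPM in young against 133 to 253 CPM in old libraries.

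In naive cells the alternative activation genes Irf4 and Chil3 differed with age by -0.01 and 0.15 on the log2 scale, and Itgam, of the monocyte list, by 0.06, none of them called. Of 24 alternative activation genes none was called in naive cells by edgeR (4 at an unadjusted p under 0.05, and 1 called by DESeq2), and 9 rose in Siglec F-low cells. The difference between the asbestos and the naive age effects was itself not called for these genes: for Irf4 it was 1.18 (edgeR adjusted p = 0.234), for Itgam 1.22 (edgeR adjusted p = 0.234) and for Chil3 0.59 (edgeR adjusted p = 0.578). So an age difference present after asbestos and absent without it was not shown for them.

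**Figure D4:**
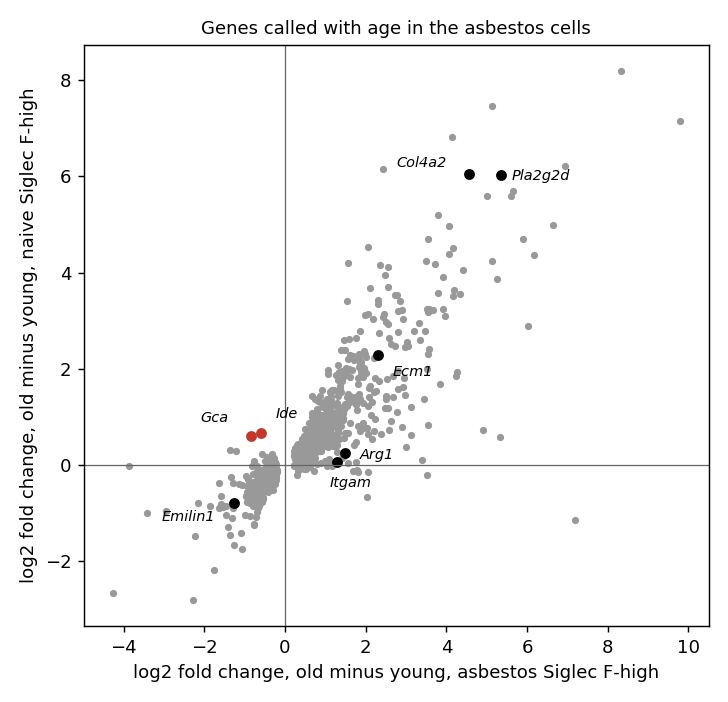
Log2 fold change with age in asbestos Siglec F-high cells (horizontal) against naive Siglec F-high cells (vertical), for the 997 genes called in the former; red marks the 2 genes called in the opposite direction in naive cells, Ide and Gca. Of the 997 points, 956 have the same sign on both axes, while Itgam and Arg1 lie near 0 on the vertical axis.

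In the test of the difference of age effects between asbestos and naive Siglec F-high cells, 2 of 13629 genes were called (0.0147%), and 703 had an unadjusted p under 0.05. Ide, the insulin-degrading enzyme (chr19:37268743-37337852, minus strand), stood at 108, 100.1 and 105 CPM in young and 70.6, 67.9 and 68.8 CPM in old asbestos libraries (log2 fold change -0.60, SE 0.07, edgeR adjusted p = 1.13e-05). In naive mice the order was the other way round, 56.98 to 65.3 CPM in young and 93.5 to 106 CPM in old libraries, and the difference of the 2 age effects was -1.27 (edgeR adjusted p = 5.02e-08). The Siglec F-low sort followed the asbestos pattern, at 93.5 to 101 CPM in young and 60.7 to 72.6 CPM in old mice. The 6 groups thus fell on 2 levels without overlap, young naive, old asbestos Siglec F-high and old asbestos Siglec F-low on the lower and the other 3 on the upper, leaving out young replicate 3 at 38.7 CPM. Of its neighbours on chromosome 19, Btaf1 and Cpeb3 covered overlapping ranges in young and old libraries. Btaf1 was at 57.5 to 70.3 CPM in young naive, 64.98 to 71.6 CPM in old naive, 64.5, 73.3 and 67.4 CPM in young asbestos and 60.3, 56.1 and 67.6 CPM in old asbestos Siglec F-high libraries, and Cpeb3 at 8.51 to 12.4, 10.4 to 12.1, 11.9, 9.44 and 9.95 and 10.1, 11.04 and 10.9 CPM in the same order. Fgfbp3, also on chromosome 19, was scarce. It was higher in old than in young naive libraries without overlap, at 1.45 to 2.35 CPM against 0.272 to 0.825 CPM. In asbestos Siglec F-high libraries it was at 0.792 to 1.16 CPM in young and 0.436 to 1.01 CPM in old mice, and in the Siglec F-low sort at 0.663 to 1.06 CPM and 0.453 to 0.712 CPM, with lower means in old mice and overlapping ranges in both sorts. As background, a segment with Ide and Fgfbp3 is known to vary in copy number among C57BL/6J mice. Copy number was not measured here.

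Gca, a calcium-binding protein of granules (chr2:62664285-62694109), was the other gene. It fell with age in the asbestos cells, from 40.5, 67.2 and 58.8 CPM to 25.3, 31.4 and 36.5 CPM, and was at 17.5 to 23.97 CPM in young and 25.8 to 36.9 CPM in old naive libraries, so that the difference of age effects was -1.43 (edgeR adjusted p = 0.0269). Old asbestos and old naive libraries covered much the same range, and the young groups were far apart.

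**Figure D5:**
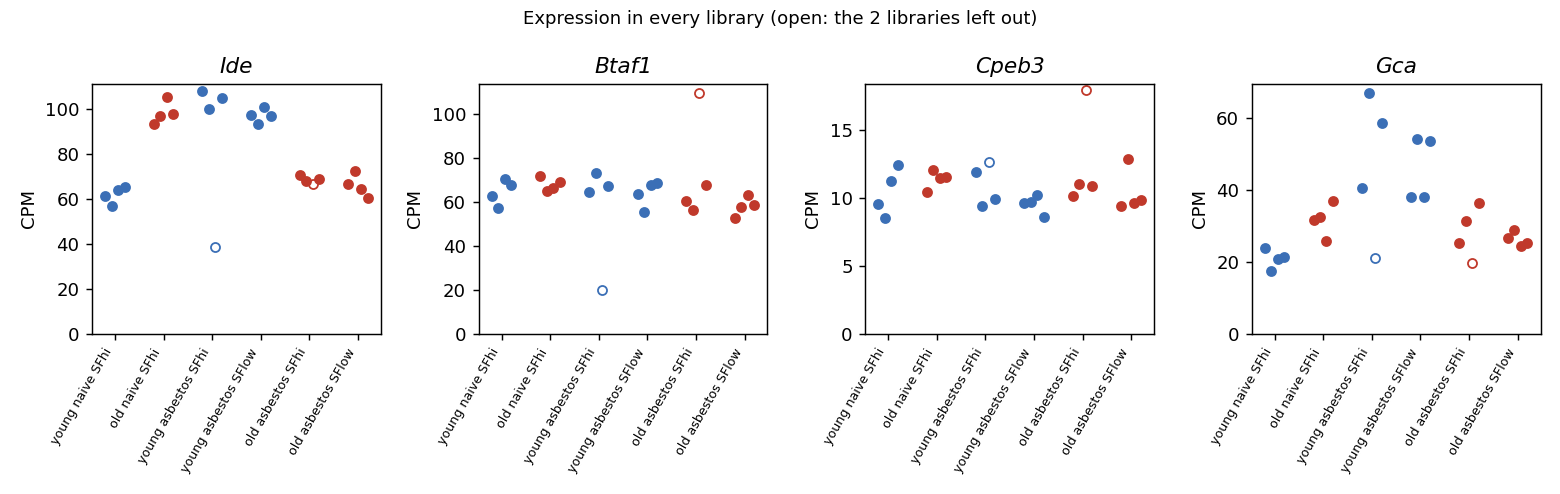
CPM of Ide, its neighbours Btaf1 and Cpeb3, and Gca in all 24 libraries, by group (young blue, old red); open points are the 2 libraries left out. Ide falls on 2 levels, 56.98 to 65.3 CPM in young naive and 93.5 to 106 CPM in old naive libraries, while Btaf1 and Cpeb3 show no such step apart from the open points.

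Against the Siglec F-low sort, 2 genes were called as differing in their age effect (0.0147%), with 870 at an unadjusted p under 0.05. Ecm1 rose more in Siglec F-high cells, where the log2 fold change was 2.30, than in Siglec F-low cells, where it was 1.01, a difference of 1.29 (edgeR adjusted p = 0.00385). The young Siglec F-low libraries were already at 98.7 to 118 CPM and the old ones at 199.7 to 231 CPM. Cpeb1 likewise rose by 2.72 and 0.98 in the 2 sorts (difference 1.74, edgeR adjusted p = 0.00945), from 9.79 to 13.4 CPM to 21.9 to 23.3 CPM in Siglec F-low cells. With all 24 libraries edgeR called 0 genes in both tests of a difference, with 1050 genes (against naive) and 650 genes (against Siglec F-low) at an unadjusted p under 0.05. On the same 24 libraries limma voom with sample weights called 3 and 15 genes, and DESeq2 on 22 libraries called 13 and 29.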

How the data were processed

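RNA of flow-sorted alveolar macrophages was sequenced as poly(A) libraries, 24 in all. The authors deposited 1 table of counts, whole-number reads per gene, one column per library. Per the submitters' processing notes, bcl2fastq 2.19.1, FastQC, Trimmomatic 0.36, STAR 2.6.0 and HTSeq 0.11.2 were used with build mm10. The annotation release and the strand setting are not given in the sources used here.

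Counts were tested as deposited with edgeR 4.0.16 (R 4.3.3) by the quasi-likelihood F test, with TMM factors, genes kept by filterByExpr (minimum count 10, minimum total 15) and Benjamini-Hochberg adjustment over all 13629 genes. The fit had 1 term per group over 22 libraries, leaving out replicate 3 of the young and of the old asbestos Siglec F-high groups, so that the other groups helped estimate the spread. Genes were called at an adjusted p under 0.05. CPM are TMM-scaled. The 22 libraries held 13423080 to 18124526 counts, and the number of libraries, 3 a side, limits the precision. In counts simulated for this comparison (13352 genes), 36 of 100 genes changed by 0.5 on the log2 scale and 67 of 100 changed by 1 were called, with 6 false calls. The share of genes changed there was smaller than the 7.32% called in the data. The Benjamini-Hochberg adjustment depends on that share, so these rates need not hold for the data.

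Named genes were the 10 higher and 10 lower of smallest p, the 6 higher and 6 lower of largest fold change with a mean of at least 5 CPM in a group, up to 4 per gene list, the genes of the interaction tests, and Siglecf, Atf4, Ddit3, Hspa5, Psmb5, Col4a2, Mmp12 and Spp1. Further list members named beside these were chosen after their values were seen, and some selected genes are not reported here. The comparison and the 33 gene lists were chosen with earlier results of these data known. Positions are from GENCODE M21 (GRCm38) and promoters from RefSeq (GRCm38.p6). Alternatives were limma 3.58.1 voom with sample weights, DESeq2 1.42.0, other scalings and filters, a replicate block, the 2 groups alone and each library left out. Fits lacking only 1 of the 2 poor libraries were chosen after seeing the data.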

Additional observations from a re-analysis of the deposited data

Results flagged for a closer look

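Values are listed where a library lay far from the other 3 of its group, by Dixon's criterion at the 95% level, in the counts of genes, the share of structural RNA, the correlation within the group, or the CPM of a named gene on the scale of all 24 libraries. Chance flags about 1 in 20 groups, and 21 of 168 pairs of gene and group were listed, 13 of them at a replicate 3 library.

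Young asbestos Siglec F-high replicate 3 stood apart with 12528 genes with a count, 0.640% structural RNA and a correlation of 0.853 with the mean of its group's other libraries. Old asbestos Siglec F-high replicate 3 stood apart with 15037 genes with a count, 37.5% structural RNA and a correlation of 0.909. Both were left out of the main comparison.

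Young asbestos replicate 3 lay far below its group for Ecm1 (10.9 CPM), Hyou1 (71.9), Ide (38.7), Lrp5 (4.54) and Nsdhl (6.09). It lay far above it for Cdkn2a (19.7 CPM), Cdkn2b (17.3), Fkbp4 (223), Jchain (18.8) and Psmb5 (175). Old asbestos replicate 3 was high for Mki67 (203 CPM) and low for Fkbp4 (41.7) and Emilin1 (43.3).

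Of the libraries kept, young asbestos replicate 1 was far from the rest for Mmp12 (87.3 CPM) and old asbestos replicate 2 for H2afx (36.6 CPM). In naive mice, old replicate 2 stood apart for Cdkn2b (9.73 CPM) and Mmp12 (165 CPM), old replicate 1 for Igkc (128 CPM), young replicate 1 for H2-Aa (151 CPM), young replicate 2 for Chil3 (15604 CPM) and young replicate 3 for Col4a2 (2.27 CPM).

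The age effect differed between asbestos and naive Siglec F-high cells by edgeR's quasi-likelihood test for Ide (difference of log2 fold changes -1.27, adjusted p = 5.02e-08) and Gca (-1.43, adjusted p = 0.0269). Between the Siglec F-high and Siglec F-low sorts it differed for Ecm1 (1.29, adjusted p = 0.00385) and Cpeb1 (1.74, adjusted p = 0.00945).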

How the results depend on the processing

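The 997 genes called on 22 libraries became 641 with all 24 libraries, 748 with all but young replicate 3 and 460 with all but old replicate 3 (these last fits were chosen after seeing the data). The 8 libraries of the 2 groups alone gave 17 genes, the 6 kept libraries alone 1274, limma voom with sample weights on 24 libraries 1896 and DESeq2 1256. Leaving out each of the 6 libraries gave 496 to 811 genes. Other scalings, no filter on low counts, a minimum count of 30 or leaving out structural RNA genes gave 983 to 1011. The difference of age effects against naive cells, 2 genes, became 0 with all 24 libraries and with all but old replicate 3, 13 with DESeq2, 16 with no filter and 1 to 2 with a library left out. The difference against Siglec F-low cells, also 2 genes, became 0 with all 24 libraries and with all but old replicate 3, 15 with limma voom, 29 with DESeq2, 36 with no filter and 1 to 4 with a library left out. With replicate number as a block, 1347 genes were called for age, 2 for the difference against naive cells and 14 for that against Siglec F-low cells. Same-numbered libraries of the 2 groups deviated from their group means with correlations of 0.02, 0.03 and -0.08, so the numbers were not taken to pair young with old libraries. Pairing of Siglec F-high with Siglec F-low libraries of the same age was not checked.

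Of genes named above, Siglecf had a log2 fold change of -0.042 with all but young replicate 3. Atf4 had -0.085 with all 24 libraries and -0.12 with the 8 libraries alone. Psmb5 had -0.56 with all 24 libraries, -0.61 with the 8 alone, -0.026 with all but young replicate 3 and -0.37 with all but old replicate 3. None of these values was called. Over the 139 genes that the naming rule selects, many of them not named here, 15 changed sign and 45 lost their call with all 24 libraries, and 139 kept sign and call under DESeq2. The cause of these changes was not tested. In the simulated counts, at this depth and with 3 libraries a side, a change of 0.5 on the log2 scale was often not called.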

Other observations

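In lists not described above, most members were not called in old against young asbestos Siglec F-high cells. Of 40 C-type lectin and scavenger receptor genes, 6 rose and 1 fell, and with all 24 libraries 2 rose and 3 fell. Colec12, a scavenger receptor with a collectin domain, stood at 52.02, 35.4 and 51.6 CPM in young replicates 1, 2 and 4 and at 140.0, 92.2 and 132 CPM in old replicates 1, 2 and 4 (log2 fold change 1.39, SE 0.28, edgeR adjusted p = 0.0027). Clec9a, a receptor for exposed actin best known from dendritic cells, rose from 9.104, 5.27 and 6.59 CPM to 13.4, 12.6 and 17.4 CPM (log2 fold change 1.04, SE 0.21, edgeR adjusted p = 0.00294), and Clec4a3, an inhibitory lectin, fell from 162, 161 and 154 CPM to 106, 121 and 101 CPM (log2 fold change -0.54, SE 0.10, edgeR adjusted p = 0.00145). Tlr7, the endosomal sensor of single-stranded RNA, rose by 0.46 on the log2 scale (edgeR adjusted p = 0.00859). Among 34 antioxidant and iron genes 5 rose and none fell, with a median of 0.20, and with all 24 libraries 2 of 33 rose, with a median of -0.03. Slc11a1, the phagosomal metal transporter NRAMP1, went from 8.48, 7.804 and 7.05 CPM to 17.2, 14.6 and 30.3 CPM (log2 fold change 1.40, SE 0.24, edgeR adjusted p = 6.56e-04), and Blvrb, a biliverdin reductase, from 57.1, 51.9 and 53.2 CPM to 75.4, 75.3 and 78.02 CPM (log2 fold change 0.50, SE 0.10, edgeR adjusted p = 0.00328). Without young replicate 2, young replicate 4 or old replicate 1, 2 of the 34 rose, and without old replicate 2 or 4, 3 did.

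Among 40 chemokine and cytokine genes 6 rose and none fell, with a median of 0.56, and with all 24 libraries 2 of 39 rose, with a median of 0.20. Cxcl9, an interferon gamma-induced chemokine, was at 1.47, 2.32 and 3.29 CPM and 5.72, 10.04 and 5.82 CPM (log2 fold change 1.62, SE 0.32, edgeR adjusted p = 0.00256), and Cxcl16 at 11.5, 8.96 and 11.5 CPM and 21.7, 16.02 and 15.5 CPM (log2 fold change 0.74, SE 0.15, edgeR adjusted p = 0.00405). The list's count was 3 without young replicate 4. C4b, a complement component, rose from 14.6, 10.02 and 18.7 CPM to 43.1, 35.98 and 31.4 CPM (log2 fold change 1.36, SE 0.26, edgeR adjusted p = 0.00177). Of 33 glycolysis and hypoxia genes 5 rose and none fell, with Ndrg1, a hypoxia-induced gene, at 2.49, 3.43 and 3.23 CPM and 10.5, 11.97 and 9.46 CPM (log2 fold change 1.80, SE 0.36, edgeR adjusted p = 0.00257). Without young replicate 2, 2 of these rose. Of 71 oxidative phosphorylation genes 1 rose and none fell, with 60 positive and a median of 0.06, while with all 24 libraries 3 fell and none rose, with a median of -0.73. Of 43 type I interferon response genes 2 rose, and with all 24 libraries 1 fell and none rose. These shares of 71 and 43 are near or below the 4.84% of all genes that were higher.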
